A study of Caenorhabditis elegans with 2 samples.

Results

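The 7 genes described here encode subunits or partners of the COMPASS complex of the nematode Caenorhabditis elegans: set-2, rbbp-5, wdr-5.1, ash-2, dpy-30, cfp-1 and hcf-1. All 7 were found by name among the 19973 protein-coding genes of the nuclear chromosomes. They were selected on their shared function and on measured values, namely the peaks already seen at some of them, so the counts and signals at these genes are a description and carry no test. For each gene, every region was taken whose summit lay within 1000 bp of the gene start, the 5′ end of the gene record. This gave 3 regions in the thresholded list, 7 in the pooled list, 9 in the replicate 1 list and 8 in the replicate 2 list.

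The regions came from ChIP-seq, in which DNA bound by a protein is precipitated and sequenced. The protein was C08G9.2, for which the annotation used here gives no gene name beyond its sequence name, joined at its C terminus to a GFP-FLAG tag and precipitated with an antibody against GFP. The animals were whole hermaphrodite late embryos of strain OP513, collected 5 hours after synchronization by egg bleaching. The strain has the genotype unc-119(tm4063) III; wgIs513, where wgIs513 names the integrated transgene, so all samples carry the same unc-119 allele and the tagged protein comes from a single transgenic line. The tissue was the whole animal, so signals are averages over all its cell types. There was 1 group of 2 biological replicates, no second condition and no untagged group, and a control library used upstream was not analysed here. Read counts are not part of these lists, and the depth of either replicate is unknown. The thresholded list holds 1416 peaks that passed an irreproducible discovery rate (IDR) step on the 2 replicates, and it corresponds to the 1416 pooled regions of highest signal. The pooled list holds 30000 regions and the replicate lists 27783 (replicate 1) and 29382 (replicate 2), which by their deposited descriptions hold background as well as peaks. Signal is the authors' value on an unstated scale, and ranks count from the highest signal within 1 list, so ranks from lists of different length show no change.

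COMPASS places methyl groups on lysine residues of histone H3 at the position known as H3K4, a mark found at the promoters of active genes. The enzyme, the Set1 type methyltransferase, works only together with a core of non-catalytic subunits and is led to some promoters by a DNA-binding subunit. In C. elegans, set-2 and its partners are known for their roles in germ line maintenance and lifespan. The data below concern the binding of C08G9.2 near these genes, not the activity of COMPASS, and no histone mark or transcript was measured.

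Peaks of the thresholded list lay at set-2, rbbp-5 and ash-2, the catalytic subunit and 2 members of the core. No thresholded peak lay within 1000 bp of the starts of wdr-5.1, dpy-30, cfp-1 or hcf-1. The count of 3 of 7 genes stands beside 5.6% of all protein-coding genes with a thresholded summit that close, and since the genes were chosen with this in view, nothing is read from the gap. The sequences at the 3 peaks are shown because they carry these results. Each is given 5′ to 3′ on the strand of the COMPASS gene, from the RefSeq copy of the WBcel235 genome, which is the ce11 build. A lone capital marks the summit base, and a capital run marks frequent sequence words described further on.

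set-2, chrIII:4930375-4930575, minus strand: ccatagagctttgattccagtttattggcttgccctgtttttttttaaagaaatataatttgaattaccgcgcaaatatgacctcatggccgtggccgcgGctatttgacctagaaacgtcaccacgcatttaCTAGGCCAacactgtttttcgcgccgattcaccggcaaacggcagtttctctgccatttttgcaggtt
rbbp-5, chrII:6097598-6097750, plus strand: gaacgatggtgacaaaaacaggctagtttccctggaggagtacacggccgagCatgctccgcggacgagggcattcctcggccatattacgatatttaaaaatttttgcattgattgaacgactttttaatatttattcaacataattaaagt
ash-2, chrII:11980177-11980377, plus strand: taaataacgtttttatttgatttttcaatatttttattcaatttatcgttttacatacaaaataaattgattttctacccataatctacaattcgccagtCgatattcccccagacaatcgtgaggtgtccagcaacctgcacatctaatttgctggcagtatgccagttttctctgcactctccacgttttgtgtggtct

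The set-2 and ash-2 windows hold 100 bp to each side of the summit. The rbbp-5 window was cut to 153 bp because the first exon of the neighbouring gene tpp-2 reaches to its left edge.

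set-2 encodes the H3K4 methyltransferase itself, the worm homolog of yeast Set1 (WBGene00004782, chromosome III, 4922427 to 4930204, minus strand). Its peak (4930348 to 4930605) had a signal of 367 and ranked 129 of 1416, the highest of the 7 genes. The summit lay 271 bp upstream of the start, between genes. In the replicates the same region had a signal of 193 and rank 104 (replicate 1) and a signal of 174 and rank 154 (replicate 2), with summits 263 and 272 bp upstream. The outermost of the 4 summits were thus 9 bp apart. No other gene start of any kind lay within 1000 bp of this summit, and the nearest other coding start, that of C26E6.12, was 2049 bp from the set-2 start. The peak also preceded the start of transcript C26E6.9c.1 by 344 bp and that of C26E6.9b.1, which begins far inside the gene, by 4375 bp. A weaker region lay 727 bp downstream of the set-2 start in a coding exon (rank 16733 in the pooled list and 16806 in replicate 1). Replicate 2 had a weak region 448 bp downstream (rank 25887). Replicate 1 had another 463 bp upstream (rank 24657), with its summit in the 3′ UTR of C26E6.12.

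rbbp-5 encodes the homolog of RBBP5, a WD-repeat subunit of the COMPASS core (WBGene00017683, chromosome II, 6097830 to 6099645, plus strand). Its peak (6097560 to 6097767) had a signal of 256 and ranked 262 of 1416, with the summit 180 bp upstream. Replicate 1 gave a signal of 130 and rank 227, and replicate 2 gave 123 and rank 322. The replicate summits were 6 bp apart. This region lay between divergent genes. The start of tpp-2, which encodes a tripeptidyl peptidase (WBGene00017686, minus strand), was 233 bp from that of rbbp-5, and the summit lay 53 bp upstream of tpp-2, closer to it than to rbbp-5. Which of the 2 genes the region belongs to cannot be told apart from position alone.

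ash-2 encodes the homolog of ASH2, another core subunit (WBGene00012458, chromosome II, 11979838 to 11989050, plus strand). Its peak (11980176 to 11980389) had a signal of 188 and ranked 431 of 1416. The signal was 88.2 at rank 428 in replicate 1 and 102 at rank 438 in replicate 2. The summit lay 439 bp downstream of the start of the gene record, in an exon of transcript Y17G7B.2c, which has no coding sequence. The other 4 transcripts, which are coding, begin 588 to 627 bp after that start, so the same summit lay 149 to 188 bp upstream of them, as at set-2 and rbbp-5. The divergent neighbour Y17G7B.20 starts 6 bp from the ash-2 gene record, with the summit 433 bp upstream of it. Replicate 2 alone also had a weak region 211 bp upstream of the ash-2 start (signal 21.8, rank 16337), in a coding exon of Y17G7B.20.

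**Figure D1:**
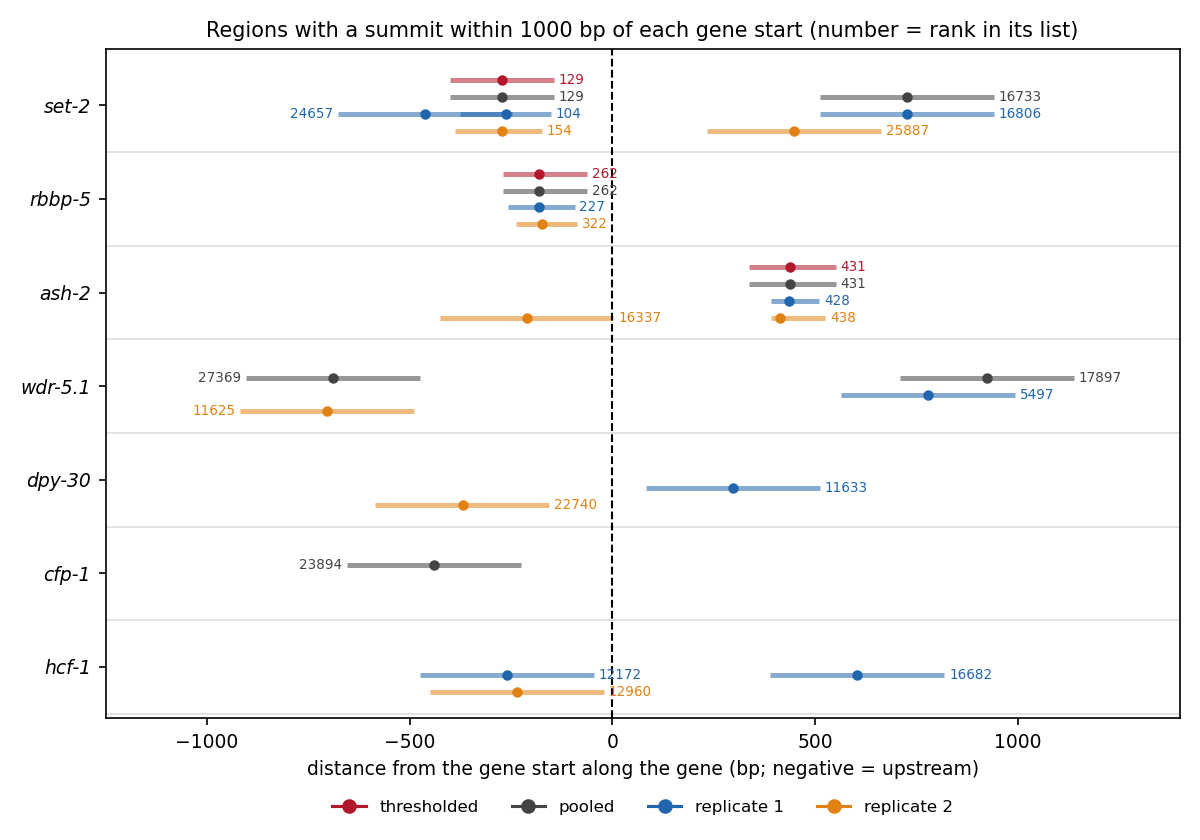
Regions with a summit within 1000 bp of the start of each of the 7 genes, drawn by distance from the start along the gene (bp, negative upstream); bars are regions, points are summits, colours are the 4 lists and numbers are ranks within a list. At set-2, rbbp-5 and ash-2 the regions of all 4 lists lie on each other, with ranks of 104 to 438. The extra regions at set-2 and ash-2 rank 16337 or worse, and every region at the other 4 genes ranks 5497 or worse.

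The 3 peaks had similar ranks in both replicates, without overlap between the genes: 104 to 154 for set-2, 227 to 322 for rbbp-5 and 428 to 438 for ash-2. The order of the genes was the same in the pooled list and in each replicate. Each thresholded peak was given the best rank of any replicate region overlapping it, so different peaks can share the rank of 1 region. The 3 COMPASS peaks were all among the 1416 regions of highest signal of each replicate list, and so were 69.0% of all thresholded peaks in both lists at once. The same held for every one of the 100 thresholded peaks within 50 ranks of each, so it does not set the 3 apart. The worst replicate rank among those was 270 around set-2, 490 around rbbp-5 and 1135 around ash-2. Counting only the 1416 highest regions, 3 of 7 genes had a summit within 1000 bp in replicate 1, against 5.45% of coding genes, and the same 3 in replicate 2, against 5.55%. All 3 carried the highest −log10 q-value of the thresholded list (3.36), as did 1158 of the 1416 peaks, so that value does not separate them.

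Signals relative to the list median of 135 were 2.72-fold for set-2, 1.9-fold for rbbp-5 and 1.39-fold for ash-2. A higher signal was found at 9.04%, 18.4% and 30.4% of thresholded peaks, in the same order. The highest signal in the list was 2395. The 100 thresholded peaks within 50 ranks of each peak give a yardstick for how alike the replicates were. The worse of the 2 replicate ranks was 154 for set-2, against a median of 147.5 for its neighbours (range 78 to 270). It was 322 for rbbp-5, against 299.5 (107 to 490), and 438 for ash-2, against 507.5 (82 to 1135). The low ends of these ranges, 78, 107 and 82, belong to peaks that overlap the same replicate regions as a stronger thresholded peak. They are therefore not ranks of the neighbours alone.

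**Figure D2:**
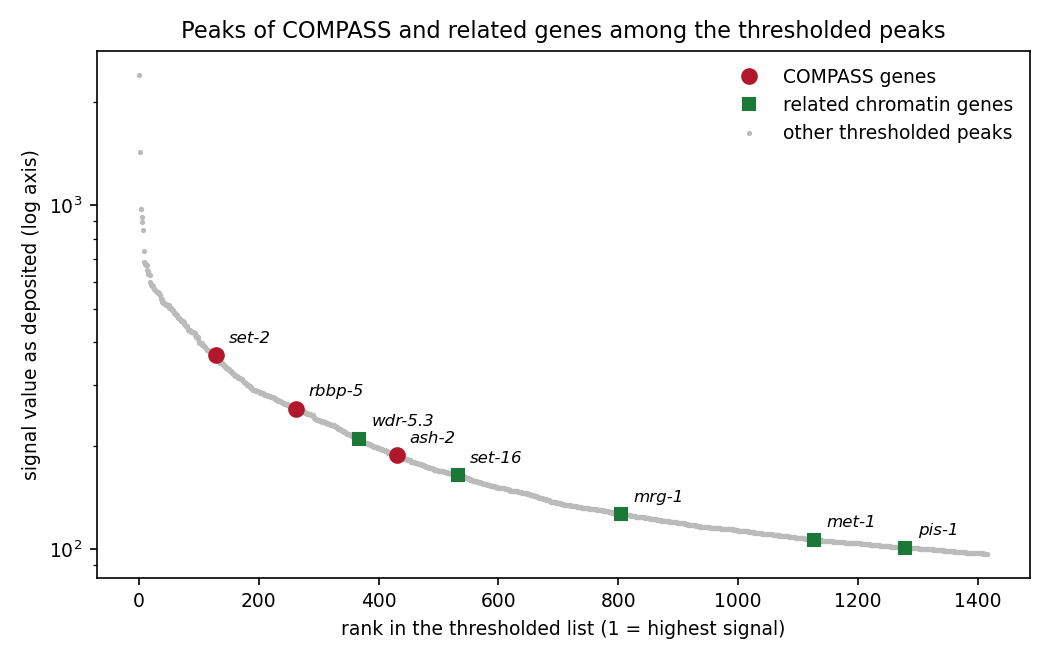
Signal as deposited (log axis) against rank in the thresholded list (1 is the highest signal); red circles are COMPASS genes, green squares are related chromatin genes and grey points are the other peaks. The signal is 367 at set-2, 256 at rbbp-5 and 188 at ash-2, and the lowest signal of the list is 97.0.

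Of thresholded peaks with a coding start within 1000 bp, the 6 next in rank to set-2 lay at Y43F8C.7, C01B10.9 and cpsf-1 above it, and smu-2, melo-2 and F53E10.6 below it. cpsf-1 encodes a subunit of the cleavage and polyadenylation factor and smu-2 a splicing factor. The peaks at C01B10.9 and smu-2 had 2 coding starts within 1000 bp, and the other start is not named here. At Y43F8C.7 the summit lay 796 bp downstream of the start. The pooled signals of the 6 peaks ran from 353 to 372. In replicate 1 these 6 peaks ranked 119 to 171, below set-2, and in replicate 2 they ranked 114 to 133, above set-2. The set-2 peak was therefore the best placed of the 7 in replicate 1 and the worst placed in replicate 2.

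**Figure D3:**
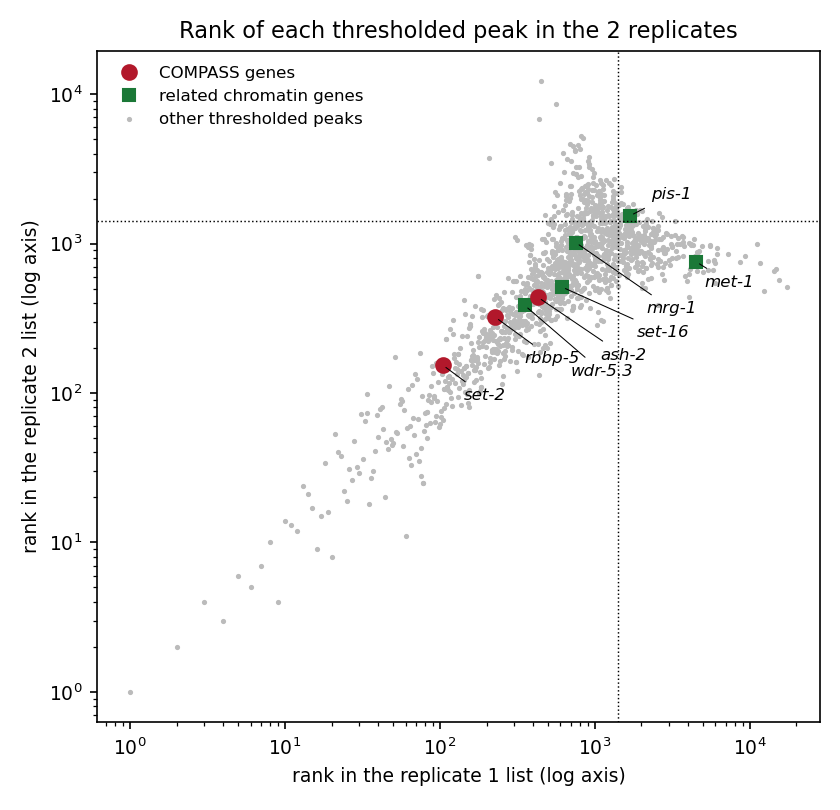
Rank of each thresholded peak in the replicate 1 list (x) and the replicate 2 list (y), both on log axes, for the 1415 peaks with a region in both; dotted lines mark rank 1416, and colours are as in the plot of signal by rank. Each peak takes the best rank of any replicate region overlapping it. The 3 COMPASS genes lie inside both lines, as do the related genes wdr-5.3, set-16 and mrg-1. Related genes of lower signal, met-1 and pis-1 (thresholded ranks 1126 and 1279), lie outside at least 1 line.

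Summits in the 2 replicates were 9 bp apart at set-2, 6 bp at rbbp-5 and 21 bp at ash-2. Over the 1415 thresholded peaks with a region in both replicates the median was 21 bp and the upper quartile 50 bp. The peaks were also narrow, 258 bp at set-2, 208 bp at rbbp-5 and 214 bp at ash-2. The median and both quartiles of the width were 430 bp in the thresholded list, and 17.9% of its peaks were no wider than that of set-2. Every weaker region at the COMPASS genes was also exactly 430 bp wide. The caller and its settings are not named, so whether this width was measured or preset is unknown. The peaks within 50 ranks were also narrow around set-2 (median 247 bp) and rbbp-5 (188.5 bp), whereas those around ash-2 had a median of 430 bp. Upstream summits were the rule across the genome: among the 1119 coding genes with a thresholded summit within 1000 bp, 86.3% had it upstream. Over all 1119, upstream and downstream together, the median absolute distance was 278 bp, with quartiles of 147.5 and 526.5 bp.

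The 4 remaining genes had weak regions. wdr-5.1 encodes the WDR5 homolog that bridges the core subunits (WBGene00006474, chromosome III, 3705285 to 3706784, plus strand). Its better pooled region lay 925 bp downstream in a coding exon, 676 bp before dph-1 (signal 34.8, rank 17897), and the other lay 688 bp upstream in a coding exon of C14B1.3 (signal 27.3, rank 27369). The replicates did not place their regions alike. Replicate 1 had its region 779 bp downstream (signal 29.9, rank 5497) and replicate 2 had it 703 bp upstream (signal 25.4, rank 11625), 1482 bp away.

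dpy-30 encodes a small core subunit that is also needed for dosage compensation in C. elegans (WBGene00001088, chromosome V, 12191519 to 12192385, plus strand). It had no pooled region in the window. Replicate 1 had a region 298 bp downstream, in a coding exon and 456 bp before rnp-1 (signal 22.6, rank 11633). Replicate 2 had a region 369 bp upstream (signal 18.4, rank 22740), 450 bp from the start of the non-coding gene ZK863.11 and 667 bp from that of replicate 1. The replicates therefore marked different places at both dpy-30 and wdr-5.1.

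cfp-1 encodes the CXXC finger protein homolog, the subunit that in mammals binds unmethylated CpG and brings the complex to promoters (WBGene00009924, chromosome IV, 14077435 to 14083568, plus strand). It had a pooled region 440 bp upstream (signal 29.8, rank 23894) and none within the window in either replicate. Inside the gene, 1474 bp from the start, a coding exon held a stronger pooled region (signal 55.2, rank 6207), still far below the thresholded list. The nearest thresholded peak lay 43399 bp away.

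hcf-1 encodes the homolog of host cell factor, which in mammals joins Set1 complexes (WBGene00001827, chromosome IV, 7770770 to 7774275, minus strand). Its start lies 136 bp from that of swd-2.2 (WBGene00016374, plus strand), named after the yeast COMPASS subunit Swd2. Replicate 1 had a region 260 bp upstream of hcf-1 (signal 22.2, rank 12172) and replicate 2 had one 25 bp closer to the start (signal 24.2, rank 12960). Both lay in the 5′ UTR of swd-2.2, 124 and 99 bp after its start. No pooled region lay within 1000 bp of the hcf-1 start. Across the genome, 0.823% of the 6808 replicate 1 summits with a replicate 2 summit within 50 bp had no pooled summit within 1000 bp. That share covers pairs of every rank, strong peaks included. No share was computed for pairs as weak as those at hcf-1, so it does not show how unusual hcf-1 is. A further region of replicate 1 lay 604 bp downstream of the start (signal 19.4, rank 16682).

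Any region of the pooled list was found within 1000 bp for 5 of the 7 genes, against 46.7% of all coding genes. For replicate 1 the count was 6 of 7, against 45.4%, and for replicate 2 it was 6 of 7, against 46.9%. cfp-1 was the gene with none in either replicate. Regions near the edge of the window were weak on both sides of it. The farthest inside was the one 925 bp from wdr-5.1, and the nearest outside lay 1059 bp from ash-2 (replicate 1, signal 15.9, rank 24117). Next came regions 1073 bp (pooled, signal 27.4, rank 27236) and 1080 bp (replicate 2, signal 18.4, rank 22587) from hcf-1. Apart from the 3 peaks described, the thresholded peaks closest to a member lay 2389 bp upstream of ash-2 (signal 117, rank 930) and 9742 bp upstream of wdr-5.1 (signal 108, rank 1106).

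The sequence at the summits was not used to choose the genes. In the summit base and 50 bp to each side, G and C made up 44.6% at set-2, 50.5% at rbbp-5 and 38.6% at ash-2. The median of all 1416 thresholded summits was 50.5%, with quartiles of 45.5% and 55.4%, and that of windows 500 bp to either side was 35.6%. Lower GC than at the gene was found at 46.8% of thresholded summits for rbbp-5, at 19.2% for set-2 and at 6.07% for ash-2. The rbbp-5 summit sat on a short GC-rich core, since its GC share was 64.7% with 25 bp to each side and 38.3% with 100 bp. Of the weak regions, those at wdr-5.1 (44.6%) and dpy-30 (46.5%) lay in coding exons, while those at cfp-1 (27.7%) and hcf-1 (31.7%) fell below the median of the flanking windows.

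**Figure D4:**
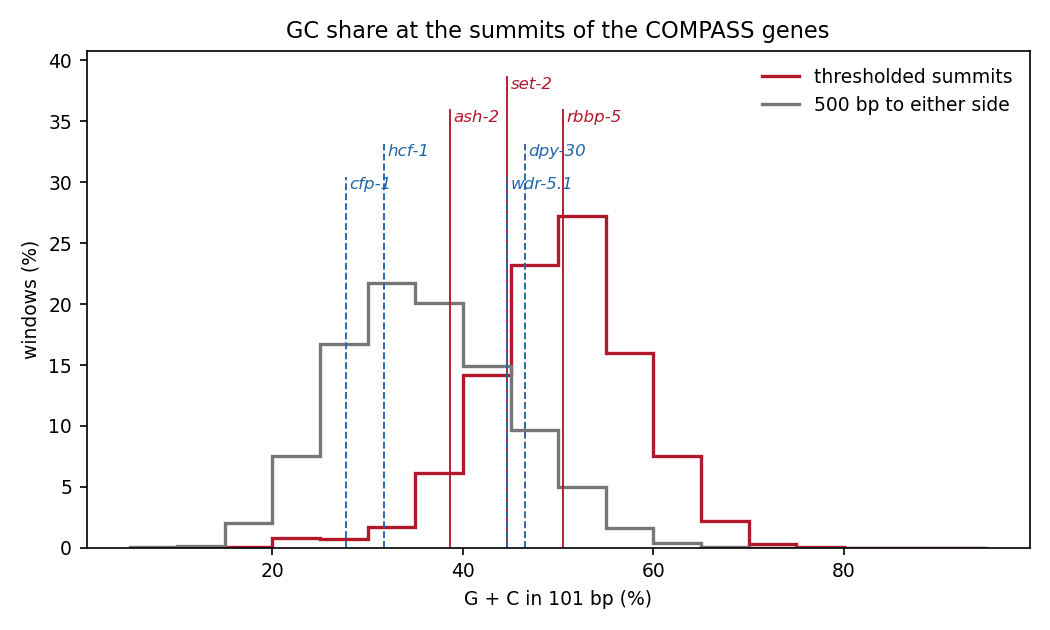
Share of G and C in the 50 bp to each side (x, %) at all thresholded summits (red outline) and in windows 500 bp to either side (grey outline), in percent of windows; vertical lines give the best summit of each COMPASS gene, solid red for a thresholded peak and dashed blue for a weaker region. The line of rbbp-5 (50.5%) falls at the median of the thresholded summits, and the lines of set-2 (44.6%) and ash-2 (38.6%) fall below their lower quartile of 45.5%.

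The 5 sequence words of 7 bases whose share at the other 1413 thresholded summits exceeded that in flanking windows by most, counted on both strands in the same windows, were CTCTCTC and, overlapping it on the opposite strand, AGAGAGA; then CTAGGCC and, overlapping it, TAGGCCA; and lastly GAGACGC. The set-2 window held both CTAGGCC and the word that overlaps it as a single run, printed in capitals above, whose bases lay 33 to 40 bp from the summit on the side of the gene. CTAGGCC was found in 8.49% of those thresholded windows, in 0.389% of flanking windows and in 0.305% of windows centred on coding gene starts. TAGGCCA was found in 8.42%, 0.708% and 0.531%, in the same order. None of the 5 words lay in the windows at rbbp-5 or ash-2, so no listed word was shared by the 3 peaks. CTCTCTC (11.1% of thresholded windows and 1.63% of flanks), AGAGAGA (10.4% and 1.7%) and GAGACGC (8.14% and 0.778%) were in none of the 3.

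Of 6 known sequence words, none was in the windows of the 3 peaks: the E-box CACGTG (1.91% of the other thresholded windows), TGATAA (1.98%), TATAAA (3.26%), GGGCGG (9.2%), GGCGGGAA (0.849%) and the splice acceptor word TTTCAG (5.17%). In flanking windows the shares of these words, in the same order, were 2.62%, 9.41%, 9.8%, 1.45%, 0.283% and 21.7%. TTTCAG was found at the weak regions of cfp-1 and hcf-1. A match or its absence describes these letters in this window and says nothing about any factor.

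Other chromatin genes were taken as 3 lists chosen by function, with earlier results of these data known. There were 2 lists of histone methylation genes and 1 of SIN3 deacetylase complex genes, 28 genes in all. Of these genes, 5 had a thresholded summit within 1000 bp and 23 had none, beside the 5.6% of all coding genes. Nothing is read from that gap either. Among 10 other H3K4 genes there were 3. These were set-16, the methyltransferase of the second H3K4 complex (signal 164, rank 532, 182 bp upstream), wdr-5.3, a WDR5 paralog (signal 209, rank 367, 198 bp upstream), and pis-1, a set-16 complex subunit (signal 101.2, rank 1279, 991 bp upstream). The set-16 region ranked 610 in replicate 1 and 513 in replicate 2, that of wdr-5.3 ranked 352 and 386, and that of pis-1 ranked 1680 and 1531. The third WDR5 paralog, wdr-5.2, had a pooled region of signal 30.9 at rank 22446, and its regions ranked 10277 in replicate 1 and 19510 in replicate 2. The H3K4 demethylase genes rbr-2 and spr-5 had pooled regions at ranks 2280 and 16541. At utx-1, a demethylase gene of the set-16 complex, the pooled rank was 2322 and the replicates differed widely, with rank 653 in replicate 1 and 14085 in replicate 2.

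Of 9 genes of the SIN3 deacetylase complex, known to meet COMPASS through CFP-1 in C. elegans, 1 had a thresholded summit: mrg-1 (signal 126, rank 805, 225 bp upstream), with ranks of 752 and 1016 in replicates 1 and 2. hda-1, the main deacetylase, came next (pooled rank 1713, 982 bp upstream, ranks 1941 and 2301), followed by lin-53 (pooled rank 2377), which ranked 19452 in replicate 1 and 1811 in replicate 2. Of 9 other histone methyltransferase genes, 1 had such a summit: met-1, an H3K36 methyltransferase gene (signal 107, rank 1126, 46 bp upstream), which ranked 4490 in replicate 1 and 756 in replicate 2. set-25, an H3K9 methyltransferase gene, had a pooled region at rank 4884 and one in replicate 2 at rank 1090, but none within 1000 bp in replicate 1. The met-2 region, at another H3K9 methyltransferase gene, had pooled rank 5763.

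Sharing of a region with another coding start was found at all 5 related genes with a thresholded summit: drr-2 for set-16, mre-11 (a DNA break repair gene) for wdr-5.3, T13F2.2 for pis-1, spcs-2 (a signal peptidase subunit gene) for mrg-1 and C43E11.12 for met-1. It was found at 2 of the 3 COMPASS peaks, tpp-2 for rbbp-5 and Y17G7B.20 for ash-2. Over the whole list, 842 peaks had a coding start within 1000 bp, and 35.9% of those had 2 or more. That share counts each peak once, whereas the peaks above were reached through genes, and a shared peak is reached from each of its genes. Of the 1119 coding genes with such a summit, at most 540 lay at a peak with no other coding start. The set-2 peak was 1 of the 540 peaks with exactly 1 coding start. No test was made of these shares.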

How the data were processed

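ChIP-seq of C08G9.2 was made in 2 biological replicates of whole late embryos. The authors deposited peak lists on the ce11 build, per the deposited text records: 1 list for each replicate and 1 for the pool of both, all made with a control library, and a list thresholded by IDR from these 3. The sources used here do not name the caller, its settings or the IDR threshold. The signal of a region is the deposited value, of unstated scale, used only to describe and rank regions within a list. The deposited −log10 q-value is described and used in no test. Depth is unknown, so no interval based on depth is given. Lists on the ce10 build were not used.

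No region passed a chromosome end of WBcel235 (0 regions). Regions were ranked by signal. A summit was assigned to every Ensembl release 115 gene start within 1000 bp, and the share over all protein-coding genes was computed alike. Sequence words were counted with 50 bp to each side of a summit, and in flanks 500 bp away. Window counting and word ranking were tested on simulated data. The genes, lists and rules were chosen with earlier results of these data known. The text names all 7 genes, starts that share their regions, related genes with a thresholded summit (or up to 3 per list by pooled rank), and the 3 genes next in rank to set-2 on each side. wdr-5.2 and further genes that only locate a region were named after their values were seen. Python 3.11.15, numpy 2.4.6, pandas 2.3.3, scipy 1.17.1 and matplotlib 3.10.9 were used.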

Additional observations from a re-analysis of the deposited data

How the results depend on the processing

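The count of 3 genes with a thresholded summit named the same genes, set-2, rbbp-5 and ash-2, with a 500 bp window, any transcript start, the region interval in place of the summit, the 708 peaks of highest signal, RefSeq gene starts (chosen after seeing the data), without replicate 1 and without replicate 2 (the 1416 highest regions of the other replicate). None of these settings could have lost the 3 genes, given their distances and ranks above and RefSeq starts equal to those used. Their staying is therefore no added support. The count was 1 gene, rbbp-5, with a 250 bp window, and 1 gene, set-2, when each summit counted only for the nearest record start of a protein-coding gene. The tpp-2 record starts closer to the rbbp-5 summit, and that of Y17G7B.20 is closer to the ash-2 summit by 6 bp (433 against 439 bp). The coding transcripts of ash-2 begin 149 to 188 bp from that summit, so both outcomes for ash-2 rest on the use of its record start. The share of all coding genes, 5.6%, was 2.53% with a 250 bp window and 3.38% with the 708 peaks. It ran from 4.08% to 6.11% in the other settings. Of 12 alternative rank percentiles 6 stayed within the replicate SD and 5 moved. The 1 at cfp-1, with no region in either replicate and so no SD, did not change. The 500 bp window could not change the value at set-2, rbbp-5, ash-2 or cfp-1, whose best summits lie within 500 bp. Those unchanged values are therefore no added support. The widest move was at wdr-5.1, whose best region stood at 59.7% of the pooled list, 19.8% of the replicate 1 list and 39.6% of the replicate 2 list. Of 8 alternative summit positions 4 moved by more than the SD of the 2 replicates, 1 at each gene. The moves were at most 24 bp at set-2, rbbp-5 and ash-2. At wdr-5.1 the replicate 2 summit was on the other side of the start (-703 bp, against 925 bp pooled). With 2 replicates the SD is a fixed share of their difference, so a pooled summit close to 1 of them makes the other count as moved. The count of moves is therefore no measure of stability. The same criterion was used for the rank percentiles. Genes with no region in a list or window gave no value there. Of 14 GC shares with 25 or 100 bp to each side 3 left the 95% exact Clopper-Pearson interval of the value with 50 bp, which treats bases as independent: set-2 with 25 bp (54.9%) and rbbp-5 with either. No paired analysis was possible because there is 1 group. With 2 replicates, no control list and unknown depth, absence from a list does not show that C08G9.2 is absent.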
